A study of Homo sapiens with 12 samples.

Results

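Transcripts of albumin and 9 other liver-made plasma carrier proteins were followed in Huh7 cells after FAM111B knockdown. The 10 members were ALB, GC, TTR, RBP4, SERPINA7, TF, HPX, AMBP, AHSG and FETUB, taken by gene symbol from the 60666 genes of the deposited Huh7 table. Each symbol matched 1 row, and 9 of the 10 members reached the level needed for testing, which was at least 1 TPM in at least 3 libraries. TPM, a measure of transcript abundance, divide the reads of a gene by its length and scale each library to a fixed total. A TPM value is thus a share that can be compared between genes. Between libraries, a share also moves with the composition of the whole library, which differed between the groups as given below.

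Huh7 is an established human hepatocellular carcinoma (HCC) line that has kept the production of many plasma proteins. The control cells carried a lentiviral control sequence and the shFAM111B cells carried a lentiviral short hairpin RNA against FAM111B, a serine protease, and the study selected transduced cells with puromycin. Each group had 3 RNA sequencing libraries, and the question was which transcripts differed once FAM111B was silenced. The comparison rested on 1 cell line and 1 hairpin sequence, neither the labels nor the methods say whether the libraries of a group came from separate cultures, and p-values therefore measure only the spread between these libraries. Libraries of Hep3B, the second hepatoma line of the series, were left out of the comparison.

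Hepatocytes release into blood a set of proteins that bind and carry small molecules. Albumin binds fatty acids, bilirubin and hormones, transthyretin and thyroxine-binding globulin carry thyroxine, the retinol-binding protein RBP4 travels in a complex with transthyretin, transferrin carries iron, hemopexin carries heme, and the vitamin D-binding protein GC carries vitamin D. The fetuins bind mineral, and AMBP encodes a precursor that is cut into alpha-1-microglobulin and bikunin. These transcripts are classical products of the differentiated hepatocyte, and their genes are driven from promoters bound by liver-enriched factors of the HNF1, HNF4, FOXA and C/EBP families.

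FAM111B itself was at 7.84, 8.29 and 7.99 TPM in the control libraries and at 0.96, 1.13 and 0.84 TPM in the shFAM111B libraries, as the labels state. The 10 hepatocyte and hepatoma markers examined, among them APOA1, APOB, GPC3 and HNF4A, were all expressed. At an adjusted p under 0.05, 6 were higher and 4 lower (APOB, HNF4A, FGB and SERPINA1) in shFAM111B cells. Over all tested genes 21.1% were higher and 50.9% lower. The marker counts were 7 higher and 3 lower with median-of-ratios, upper-quartile or library-median scaling, and 5 higher and 4 lower after quantile normalization. The sign of SERPINA1 turned under 3 of the 5 scalings. The 10 markers summed to 26087–26538 TPM in the controls and 47747–55215 TPM in shFAM111B cells. Most of that rise was AFP, with a mean of 7274 TPM in the controls and 23062 TPM in shFAM111B cells. Of 19 markers of other cell types, 6 reached the testing level and 4 of these were higher in shFAM111B cells (6 under 4 of the 5 other scalings and 2 over nuclear protein-coding TPM). Their summed level went from 90.8–94.0 TPM to 230–261 TPM, mostly through the keratin gene KRT19, which went from 28.1–34.3 to 145–182 TPM. Among macrophage markers, CD163 was at 0 in all 6 libraries, but CD68 went from 15.0–17.6 to 21.9–23.4 TPM (log2 fold change 0.45, limma adjusted p = 0.0016). MARCO, under the testing level, was at 0.09–0.18 TPM in the controls and at 0.72–1.42 TPM in shFAM111B cells. Other markers under that level went the other way. The leukocyte marker PTPRC was at 0.13, 0.04 and 2.39 TPM in control libraries 1, 2 and 3 and at 0–0.02 TPM in shFAM111B cells. Of the fibroblast collagens, COL1A1 went from 0.57–0.76 to 0.21–0.32 TPM, whereas COL1A2 went from 5.39–7.98 to 8.11–11.96 TPM. The libraries also differed in composition. Transcripts of the mitochondrial chromosome held 196140–201464 TPM in the controls and 73237–78883 TPM in shFAM111B cells, 5S ribosomal RNA was at 0 in the controls and at 22970, 33059 and 1486 TPM in shFAM111B libraries 1, 2 and 3, and nuclear protein-coding genes held 76.0–77.0% of the listed TPM in the controls against 81.1–88.2%. The part of these differences in the results was not tested.

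The carrier transcripts did not move as a block. At an adjusted p under 0.05, 4 of the 9 tested members fell in shFAM111B cells (ALB, GC, TF and AHSG), 3 rose (TTR, RBP4 and HPX), and AMBP and SERPINA7 did not pass. Over all 14394 tested genes, 50.9% were lower and 21.1% were higher at the same threshold. With a change of at least 2-fold as a further condition, GC was the 1 member lower and TTR the 1 member higher, against 23.7% and 6.77% of all tested genes. The 2 groups did not overlap for 8 of the 9 tested members, against 75.2% of all tested genes. The median log2 fold change was -0.18 over the members and -0.36 over all tested genes. With all libraries the member median is the value of SERPINA7, a gene at 0.95–4.08 TPM. Without shFAM111B library 1 the member median was 0.14, which is the value of AMBP. It was -0.42 without shFAM111B library 3, -0.40 without shFAM111B library 2, -0.09 without control library 2 and -0.32 without control library 3. Under the 5 other scalings it ran from -0.30 over nuclear protein-coding TPM to 0.35 with library medians subtracted.

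**Figure D1:**
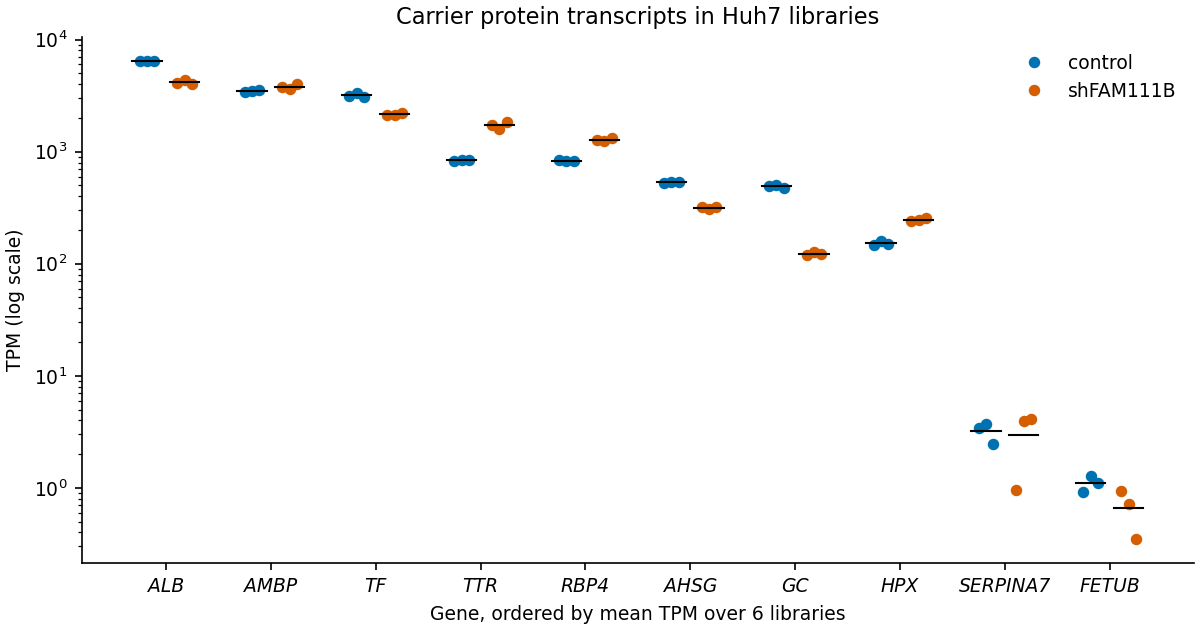
TPM of the 10 carrier protein genes on a log axis, with 1 point per library (blue, control; orange, shFAM111B) and a bar at the mean of each group of 3. The 8 genes other than SERPINA7 and FETUB lie above 100 TPM in every library with separate groups of points, of which ALB, TF, AHSG and GC are lower and AMBP, TTR, RBP4 and HPX higher in shFAM111B cells, and SERPINA7 and FETUB lie under 5 TPM with overlapping points.

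The windows before the transcription starts of ALB, AHSG and TF, which fell, and of RBP4, which rose, are shown first. RefSeq (GRCh38.p14) gave windows of 250 bases before to 50 bases after a start for 8 of the 10 members (12 windows, since TF, FETUB and RBP4 have several), and TTR and GC had no entry. The letters searched on both strands were GTTAATNAT (HNF1), TTGCNNAA (C/EBP), CAAAGTCCA (HNF4) and, for the TATA box, TATAAA. For the FOXA factors the letters TGTTTAC were searched on both strands, and the variant with the letters TATTTAC was counted as the same motif. The 130 bases before the start follow for ALB at chr4:73404157-73404286 (plus strand), AHSG at chr3:186612930-186613059 (plus strand), TF at chr3:133746263-133746392 (plus strand) and RBP4 at chr10:93601236-93601365 (minus strand), 5′ to 3′ in lower case with each match in capitals.
ALB: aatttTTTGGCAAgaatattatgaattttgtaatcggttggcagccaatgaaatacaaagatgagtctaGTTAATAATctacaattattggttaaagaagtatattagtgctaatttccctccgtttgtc
AHSG: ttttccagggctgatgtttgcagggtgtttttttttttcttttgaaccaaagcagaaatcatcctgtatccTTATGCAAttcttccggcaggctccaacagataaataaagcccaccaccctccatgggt
TF: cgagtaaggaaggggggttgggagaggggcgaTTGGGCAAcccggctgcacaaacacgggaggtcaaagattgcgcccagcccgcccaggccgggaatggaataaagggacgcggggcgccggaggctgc
RBP4: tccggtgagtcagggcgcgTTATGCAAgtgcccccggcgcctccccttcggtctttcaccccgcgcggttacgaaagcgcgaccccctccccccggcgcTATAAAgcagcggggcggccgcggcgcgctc

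In ALB the HNF1 letters lie 61 to 53 bases before the start and the C/EBP letters 125 to 118 bases before it. The C/EBP letters of ALB and those of AHSG (59 to 52 bases before the start), TF (98 to 91) and RBP4 (111 to 104) are in the reverse orientation. The printed RBP4 window has a TATA box 31 to 26 bases before its start. C/EBP letters were found for 7 of the 8 members with a window, in 7 of their 12 windows, and AMBP was the exception. The same letters occur in 10.5% of the 35116 RefSeq windows. HNF1 letters were found for ALB alone (0.792% of all windows), as were FOXA letters (5.97%), and HNF4 letters for AHSG alone (0.384%). TATA box letters were found for RBP4, SERPINA7 and FETUB, in 11.5% of all windows. In the printed stretches no match overlapped another. Members that fell and members that rose shared the C/EBP letters, and a match describes the letters only.

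ALB had the highest mean level of the members in both groups, although AMBP was above it in shFAM111B library 3. It stood at 6422, 6492 and 6419 TPM in the control libraries and at 4139, 4356 and 3988 TPM in the shFAM111B libraries. Every control library was above every shFAM111B library, and the mean of 6444 ± 41.1 TPM (SD, n = 3) compared with 4161 ± 185 TPM (SD, n = 3), which was 1.55-fold lower. The log2 fold change was -0.63 (SE 0.047, 95% CI -0.74 to -0.52, limma adjusted p = 2.31e-05). Among 19884 nuclear protein-coding genes, ALB was at rank 6 in each control library and between ranks 14 and 22 in the shFAM111B libraries. The fall of ALB exceeded that of the median tested gene by 0.27 on the log2 scale, and it did not pass once the median of each library was subtracted (log2 fold change -0.10, adjusted p = 0.11).

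GC, the vitamin D-binding protein and a distant relative of albumin, showed the largest change among the members. It was at 497, 507 and 476 TPM in the controls and at 119, 126 and 121 TPM in shFAM111B cells, without overlap. The means of 493 ± 16.0 and 122 ± 3.63 TPM (SD, n = 3 each) differed 4.04-fold. The log2 fold change was -2.01 (SE 0.045, 95% CI -2.11 to -1.90, limma adjusted p = 1.20e-06), which placed GC in the lowest 2.96% of all tested genes. Its rank went from between 205 and 225 to between 930 and 1035. The fall held under all 5 other scalings, with log2 fold changes of -2.23 to -1.47.

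ALB and GC belong to a gene family on chromosome 4 together with AFP, the fetal albumin-like protein that hepatomas often secrete, and AFM, a vitamin E-binding protein. In GENCODE v29 (GRCh38) ALB lies at chr4:73397114-73421412 on the plus strand, AFP begins 9.73 kb after it, AFM follows AFP at 25.5 kb, and GC lies at chr4:71741693-71804041 on the minus strand. These 4 genes went in different directions. AFP was at 7411, 7366 and 7045 TPM in the controls and at 22294, 21853 and 25038 TPM in shFAM111B cells (log2 fold change 1.66, adjusted p = 2.95e-06). AFM was at 4.49, 5.24 and 5.96 TPM against 0.67, 2.14 and 1.33 TPM (log2 fold change -1.43, adjusted p = 0.0013). AFP was thus at 1.13 ± 0.029 (SD, n = 3) transcripts per ALB transcript in the controls and at 5.56 ± 0.649 (SD, n = 3) in shFAM111B cells. GC was at 0.0766 ± 0.0021 transcripts per ALB transcript in the controls and at 0.0293 ± 0.00088 in shFAM111B cells (SD, n = 3 each). AFP and AFM kept their direction and passed under all 5 scalings.

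TTR (chr18:31557010-31599021, plus strand) encodes transthyretin, the tetramer that carries thyroxine and binds RBP4. Its level was 831, 837 and 837 TPM in the controls and 1724, 1597 and 1833 TPM in shFAM111B cells. The controls were nearly equal and all lay below the lowest shFAM111B library. The mean rose from 835 ± 3.26 to 1718 ± 118 TPM (SD, n = 3 each), a 2.06-fold difference, with a log2 fold change of 1.04 (SE 0.056, 95% CI 0.91 to 1.17, limma adjusted p = 6.93e-06). Only quantile normalization among the 5 other scalings gave a change of TTR under 0.9 on the log2 scale (0.55), and TTR passed under each of them.

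RBP4 (chr10:93591687-93601744, minus strand), the retinol carrier, was at 841, 823 and 822 TPM in the controls and at 1271, 1233 and 1318 TPM in shFAM111B cells, again without overlap. The means were 829 ± 10.7 and 1274 ± 42.6 TPM (SD, n = 3 each), a 1.54-fold rise with a log2 fold change of 0.62 (SE 0.041, 95% CI 0.52 to 0.72, limma adjusted p = 1.50e-05). The call for RBP4 was lost under quantile normalization (log2 fold change 0.15, adjusted p = 0.058). RBP4 and TTR, whose proteins circulate as a complex, were close to equal in the controls, with 0.993 ± 0.017 RBP4 transcripts per TTR transcript (SD, n = 3). In shFAM111B cells the ratio was 0.743 ± 0.027 (SD, n = 3), and the log2 ratio of RBP4 to TTR differed by -0.42 between groups that did not overlap. With 3 libraries against 3, the exact two-sided permutation test gave p = 0.1, the smallest it can give. This pair was chosen after the values were seen.

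SERPINA7 (chrX:106032442-106038738, minus strand) encodes thyroxine-binding globulin, the high-affinity thyroxine carrier of plasma. It was at 3.39, 3.73 and 2.45 TPM in the controls and at 0.95, 3.94 and 4.08 TPM in shFAM111B cells. The groups overlapped, with shFAM111B library 1 low and the other two above every control. The log2 fold change of -0.18 (95% CI -1.08 to 0.71, limma adjusted p = 0.68) did not pass, and it was 0.27 without shFAM111B library 1. The sign also turned under 4 of the 5 other scalings.

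TF (chr3:133745956-133796640, plus strand) encodes transferrin, the iron carrier of plasma. It stood at 3141, 3341 and 3096 TPM in the controls and at 2114, 2143 and 2231 TPM in shFAM111B cells. Every shFAM111B library was below every control, and the mean went from 3193 ± 130 to 2162 ± 60.9 TPM (SD, n = 3 each), 1.48-fold lower. The log2 fold change was -0.56 (SE 0.047, 95% CI -0.67 to -0.45, limma adjusted p = 4.14e-05). TF was close to ALB in its change, and its call was lost with median-of-ratios scaling (log2 fold change -0.11, adjusted p = 0.066) and with the library medians subtracted (-0.03, adjusted p = 0.62). The pseudogene TFP1 and the gene SRPRB overlap TF on the same strand, at 2.70 and 72.3 TPM in the controls and 3.15 and 55.01 TPM in shFAM111B cells on average. So does the pseudogene AC080128.1, at 6.08 TPM in the controls and 0.85 TPM in shFAM111B cells on average. How the counting divided shared reads was not tested.

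HPX (chr11:6431049-6442617, minus strand) encodes hemopexin, the heme scavenger. It was at 147, 161 and 149 TPM in the controls and at 241, 247 and 255 TPM in shFAM111B cells. The groups were separate, with means of 152 ± 7.54 and 248 ± 7.05 TPM (SD, n = 3 each), and HPX rose 1.63-fold. Its log2 fold change was 0.70 (SE 0.051, 95% CI 0.58 to 0.82, limma adjusted p = 2.24e-05) and lay between 0.57 and 1.23 under the 5 other scalings, past the threshold in each. The iron and heme carriers TF and HPX thus went in opposite directions.

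AMBP (chr9:114060127-114078472, minus strand), the precursor gene of alpha-1-microglobulin and bikunin, was at 3418, 3449 and 3563 TPM in the controls and at 3756, 3632 and 4040 TPM in shFAM111B cells. The groups did not overlap, but the gap between control library 3 and shFAM111B library 2 was smaller than the SD of either group. The means were 3477 ± 76.1 and 3809 ± 209 TPM (SD, n = 3 each), and the log2 fold change of 0.13 (95% CI 0.008 to 0.25, limma adjusted p = 0.055) did not pass. AMBP passed as higher without shFAM111B library 2 (0.16, adjusted p = 0.023) and under median-of-ratios, upper-quartile and library-median scaling (0.55 to 0.66). It was near 0 under quantile normalization (-0.02) and when TPM were rescaled over nuclear protein-coding genes (adjusted p = 0.91). Of the 3 inter-alpha-trypsin inhibitor family genes tested, 1 fell and 2 did not pass, although ITIH1 turned its sign under 4 of the 5 other scalings and ITIH4 passed as higher with library medians subtracted. The products of ITIH1 and ITIH2 are heavy chains that are joined to bikunin. ITIH2, the highest of them, went from 455, 469 and 456 TPM to 162, 171 and 145 TPM (log2 fold change -1.53, adjusted p = 3.56e-06). ITIH1 and ITIH4 were at 7.59–7.98 and 0.85–1.67 TPM in the controls and at 5.58–7.44 and 1.13–1.51 TPM in shFAM111B cells.

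AHSG (chr3:186612923-186621318, plus strand) encodes fetuin-A, a plasma inhibitor of calcification. It was at 529, 542 and 533 TPM in the controls and at 322, 305 and 322 TPM in shFAM111B cells. The groups were separate, the means were 535 ± 6.38 and 316 ± 9.80 TPM (SD, n = 3 each), and AHSG fell 1.69-fold with a log2 fold change of -0.76 (SE 0.041, 95% CI -0.85 to -0.66, limma adjusted p = 7.04e-06). The fall of AHSG held under all 5 other scalings (-1.07 to -0.22). FETUB, the fetuin-B gene 14.7 kb beyond AHSG on chromosome 3, was at 0.91, 1.28 and 1.11 TPM in the controls and at 0.93, 0.72 and 0.35 TPM in shFAM111B cells. The FETUB values overlapped between groups and lay around the level needed for testing. An antisense transcript (AC068631.1) overlaps both fetuin genes on the opposite strand and was at 3.34 TPM in the controls and 10.9 TPM in shFAM111B cells on average. HRG and KNG1, the cystatin-related genes that follow FETUB, were both lower, with log2 fold changes of -0.70 (adjusted p = 0.020) and -0.38 (adjusted p = 0.0014), but neither passed under more than 1 of the 5 other scalings, and the sign of KNG1 turned under 3 of them.

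**Figure D2:**
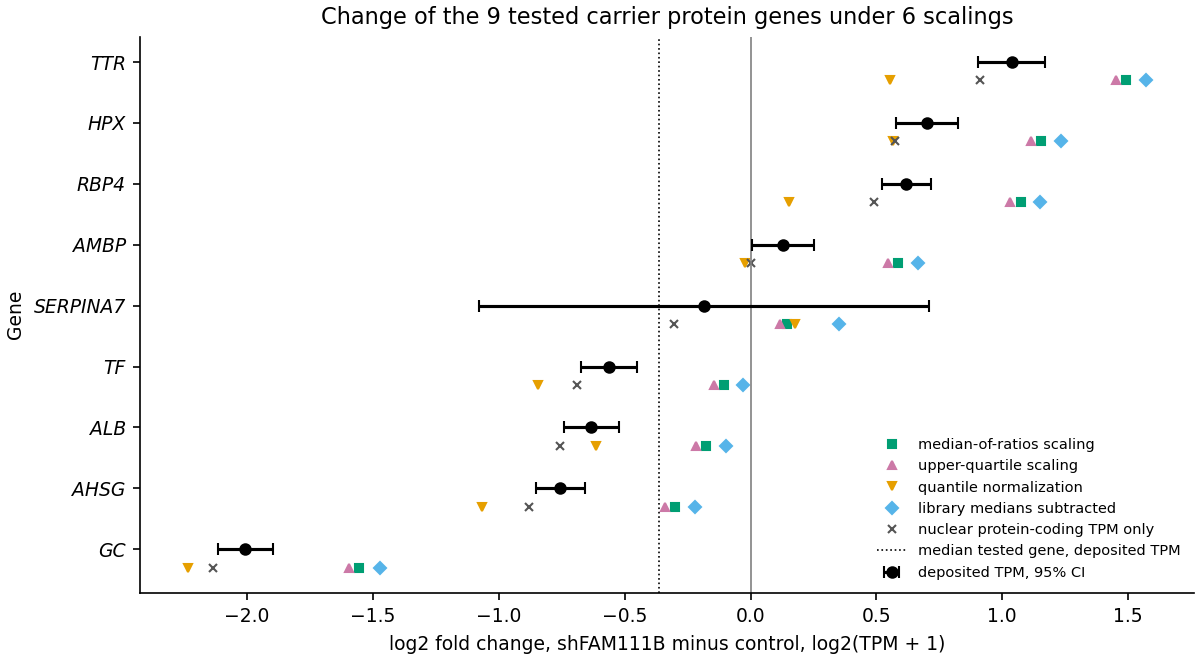
Log2 fold change of the 9 tested carrier protein genes on deposited TPM (black points with 95% CI from limma) and under 5 other scalings (coloured marks), with 0 as a solid line and the median tested gene (-0.36) as a dotted line. GC and AHSG stay below 0 and TTR, RBP4 and HPX above 0 under every scaling shown, ALB and TF approach 0 under 3 of them, and the marks of AMBP and SERPINA7 lie on both sides of 0.

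The scalings mattered because the centre of the whole distribution moved with them. The median tested gene was at -0.36 on deposited TPM, at 0.03 with median-of-ratios scaling, at -0.01 with upper-quartile scaling, at -0.03 after quantile normalization, at 0.17 with library medians subtracted and at -0.49 over nuclear protein-coding TPM. The share of calls that were higher was 29.4% on deposited TPM and 50.4%, 48.5%, 46.9%, 58.7% and 24.8% in these settings. Relative to the median tested gene, GC was at -1.65, AHSG at -0.39, ALB at -0.27 and TF at -0.20, while SERPINA7 was at 0.18, AMBP at 0.49, RBP4 at 0.98, HPX at 1.06 and TTR at 1.40 on the log2 scale. Of the 7 members that passed, 4 (GC, TTR, HPX and AHSG) passed in the same direction under all 5 scalings. The changes of all genes also varied with transcript length. The 1475 tested genes with transcripts over 1000 and up to 1500 bases, among them TTR, RBP4 and AMBP, had a median of 0.14, and the 3410 genes over 1500 and up to 2500 bases, among them ALB, GC, SERPINA7, HPX and AHSG, had a median of -0.22. HPX thus lay above, and GC, AHSG and ALB below, the median of genes of like length. With the trend over length and mean level removed, the log2 fold changes were -1.95 for GC, 0.83 for TTR, 0.41 for RBP4, 0.72 for HPX, -0.80 for AHSG and -0.54 for ALB. The annotated transcript taken for TF has 20602 bases, and its value of -1.50 after removal of the trend rests on that length.

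Plain ratios of TPM between members within a library do not depend on a scaling that multiplies the whole library by 1 factor. Quantile normalization is not of that kind, and under it ALB was at -0.61, TTR at 0.55, RBP4 at 0.15 and TF at -0.85 (log2 fold changes), which puts TF below ALB. The log2 ratio to ALB rose by 1.67 for TTR, by 1.33 for HPX, by 1.25 for RBP4 and by 0.76 for AMBP, and fell by 1.38 for GC and by 0.12 for AHSG, in each case without overlap between groups. For AHSG the fall rested partly on shFAM111B library 2 and was -0.064 without it. TTR was at 0.130 ± 0.00073 transcripts per ALB transcript in the controls and at 0.414 ± 0.047 in shFAM111B cells (SD, n = 3 each). The ratios of TF, SERPINA7 and FETUB to ALB overlapped between groups, with differences of 0.07, 0.45 and 0.29. Leaving out 1 library gave 0.018 (without shFAM111B library 3) to 0.11 (without shFAM111B library 2) for TF, 0.18 (without shFAM111B library 3) to 0.90 (without shFAM111B library 1) for SERPINA7, where it was 0.27 without shFAM111B library 2, and 0.17 (without shFAM111B library 1) to 0.40 (without shFAM111B library 3) for FETUB. The exact two-sided permutation test gave p = 0.1 for each of the 6 ratios that did not overlap, the smallest it can give with 3 libraries against 3, p = 0.4 for TF and SERPINA7 and p = 0.2 for FETUB, and after adjustment over the 9 ratios the smallest p was 0.15. At this number of libraries no ratio could pass 0.05. The log2 ratios carry the pseudocount of 1, so for genes near 1 TPM they do depend on the scaling and on the pseudocount. With a pseudocount of 0.1 the difference was 0.32 for SERPINA7 and -0.085 for FETUB.

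The 10 members together held 15831, 16155 and 15899 TPM in the controls and 13687, 13644 and 14112 TPM in shFAM111B cells. The sums did not overlap, with means of 15961 ± 171 and 13814 ± 259 TPM (SD, n = 3 each) and an exact two-sided permutation p = 0.1. Rescaled over nuclear protein-coding TPM, the difference between the means was -4350 instead of -2147 TPM. Without that rescaling, the members held 1.60% ± 0.017 of all listed TPM in the controls and 1.40% ± 0.015 in shFAM111B cells (SD, n = 3 each). Without ALB the other 9 members summed to 9409–9663 TPM in the controls and to 9288–10124 TPM in shFAM111B cells (exact permutation p = 0.8). ALB made up 40.4% ± 0.19 of the member sum in the controls and 30.1% ± 1.84 in shFAM111B cells, TTR 5.23% ± 0.045 and 12.4% ± 0.66, RBP4 5.19% ± 0.11 and 9.22% ± 0.16, and AMBP 21.8% ± 0.56 and 27.6% ± 1.01 (SD, n = 3 each). In bulk libraries, fewer cells that express a gene and less RNA of it per cell cannot be told apart.

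**Figure D3:**
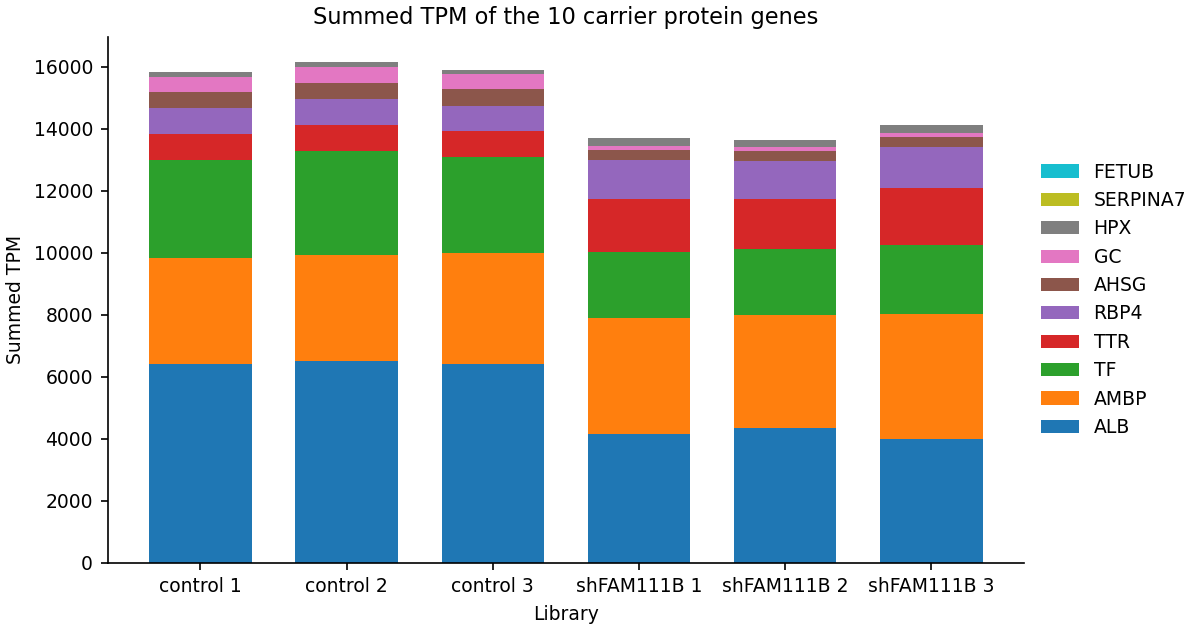
Summed TPM of the 10 carrier protein genes in each of the 6 libraries, with the part of each gene stacked by mean level from ALB at the base. The sums are 15831–16155 TPM in the controls and 13644–14112 TPM in shFAM111B cells, where the ALB and TF parts are smaller and the TTR and RBP4 parts larger; SERPINA7 and FETUB are too low to be visible.

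Other plasma carriers of the liver also went in both directions. Of 11 tested, 2 were higher and 6 lower, with a median log2 fold change of -0.37. Over all tested genes 21.1% were higher and 50.9% lower, with a median of -0.36, so this list was close to all tested genes. The same shares apply beside the counts of the lists that follow. The balance of these 11 carriers turned to 5 higher and 4 lower with median-of-ratios or upper-quartile scaling and to 5 higher and 2 lower with library medians subtracted. Their median ran from -0.49 to 0.17 over the 5 scalings. The acute-phase protein ORM1 was at 736–808 TPM in the controls and at 701–842 TPM in shFAM111B cells (log2 fold change -0.01, adjusted p = 0.89, and -0.43 to 0.52 under the 5 scalings), and ORM2 was at 301–319 and 340–405 TPM (0.27, adjusted p = 0.0095). The selenium transporter SELENOP fell from 401–433 to 262–281 TPM (-0.64, adjusted p = 3.01e-05). The copper carrier CP and A1BG fell (log2 fold changes -1.21 and -1.63, adjusted p = 6.75e-05 and 1.06e-04), and the sex steroid carrier SHBG was higher by 0.72 at 1.57–2.95 TPM in the controls and 3.88–5.70 TPM in shFAM111B cells (adjusted p = 0.018). CP, A1BG and SHBG passed in the same direction under all 5 scalings, whereas SELENOP did not pass with library medians subtracted and ORM2 did not pass under quantile normalization.

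Receptors and recycling genes for these carriers included 3 higher and 5 lower of 9 tested, with a median of -0.19. The counts were 5 higher and 1 lower with median-of-ratios scaling and 6 higher and 1 lower with library medians subtracted, and the median ran from -0.32 to 0.34. The 2 asialoglycoprotein receptor subunits differed, with ASGR2 at 298–317 TPM in the controls and 375–430 TPM in shFAM111B cells (log2 fold change 0.39, adjusted p = 8.27e-04) and ASGR1 at 173–181 and 108–129 TPM (-0.58, adjusted p = 2.20e-04). ASGR1 did not pass under median-of-ratios or library-median scaling, and ASGR2 did not pass under quantile normalization. The lipoprotein receptor SCARB1 had a log2 fold change of -0.32, whose sign turned under 3 of the 5 scalings. TFR2, the liver transferrin receptor that takes part in iron sensing, fell from 20.8–23.6 to 8.71–9.31 TPM (-1.21, adjusted p = 1.41e-05), and AMN, the partner of the albumin and transferrin receptor cubilin, rose by 0.64 (adjusted p = 5.22e-04), both under all 5 scalings. The following receptors of ALB, TF and RBP4 were chosen after their values were seen. FCGRT, which recycles albumin, was higher (0.31, adjusted p = 0.0025, all 5 scalings), and TFRC, the general transferrin receptor, was lower (-0.46, adjusted p = 2.15e-04) with a sign that turned when library medians were subtracted. STRA6, the RBP4 receptor, was at or below 0.03 TPM in every library.

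For retinol and thyroxine, 6 of the 7 tested genes considered here were lower (3 with library medians subtracted), and the retinoic acid receptor gene RARA did not pass, at 11.6–13.3 TPM in the controls and 8.51–15.0 TPM in shFAM111B cells. The retinol dehydrogenases RDH10 and RDH11 fell (log2 fold changes -1.47 and -0.73, adjusted p = 4.30e-05 and 1.02e-04), and the retinoid X receptor RXRA fell by 0.71 (adjusted p = 4.63e-05), each under all 5 scalings. The thyroid hormone receptor THRB fell by 0.81 (adjusted p = 6.20e-04), a call lost with library medians subtracted. The calls for THRA and SLC16A10 (-0.58 and -0.48) held under 1 of the 5 scalings.

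For iron and heme, 2 of 8 tested genes were higher and 6 lower, with a median of -0.79. With library medians subtracted 3 were higher and 4 lower, and the median ran from -0.92 to -0.25 over the 5 scalings. The ferritin subunits FTH1 and FTL were the most abundant, with log2 fold changes of 0.27 and -0.36 (adjusted p = 0.0011 for both), and the sign of FTL turned under 3 of the 5 scalings. The heme oxygenase HMOX1, which breaks down the heme that hemopexin delivers, fell from 149, 161 and 150 TPM to 79.4, 77.7 and 90.3 TPM (-0.89, adjusted p = 3.03e-05). IREB2, an iron sensor, SLC11A2, an iron importer, and SLC40A1, the iron exporter ferroportin, fell (log2 fold changes -1.71, -1.49 and -1.39, adjusted p = 4.96e-05, 3.54e-06 and 9.79e-06). These 4 falls held under all 5 scalings. HPX was thus higher while HMOX1 was lower. On deposited TPM, TF and TFR2 were both lower, a call that held under 3 of the 5 scalings for TF and under all 5 for TFR2.

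A list of hepatocyte transcription factors was examined beside the carriers. Of 15 tested, 4 were higher and 9 lower (median log2 fold change -0.48). With library medians subtracted 7 were higher and 5 lower, and the median ran from -0.61 to 0.05 over the 5 scalings. CEBPA rose from 83.3, 93.4 and 78.9 TPM to 139, 132 and 143 TPM (0.69, adjusted p = 1.16e-04). HNF4A fell from 99.6, 95.7 and 99.0 TPM to 40.5, 43.0 and 38.5 TPM (-1.25, adjusted p = 4.20e-06). NR1H4, the bile acid receptor, was at 38.1–42.2 TPM in the controls and at 30.1–38.9 TPM in shFAM111B cells and did not pass (-0.18, adjusted p = 0.15). PROX1 and HLF fell (log2 fold changes -2.25 and -2.05, adjusted p = 7.20e-06 and 2.77e-05), and the albumin D-box binding factor DBP was higher by 1.59 at 0.62–1.46 TPM in the controls and 4.67–6.77 TPM in shFAM111B cells (adjusted p = 4.33e-04). The calls for CEBPA, HNF4A, PROX1, HLF and DBP held under all 5 scalings. No test linked these factors to the carriers.

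Of 18 genes for translocation into and export from the endoplasmic reticulum (ER), 6 were higher, 7 lower and 5 did not pass (median log2 fold change -0.07). With median-of-ratios scaling 11 were higher and 3 lower, with library medians subtracted 12 were higher and 3 lower, and the median ran from -0.25 to 0.47 over the 5 scalings. The disulfide isomerase P4HB was at 770–813 TPM in the controls and 730–747 TPM in shFAM111B cells (-0.09, adjusted p = 0.079, and -0.50 to 0.44 under the 5 scalings). The translocon subunits SEC61G and SEC61B had log2 fold changes of 0.52 (adjusted p = 3.24e-04, lost under quantile normalization) and 0.13 (adjusted p = 0.050, not past, but past as higher under 3 of the 5 scalings). The cargo receptor LMAN1 fell from 61.0–72.6 to 17.8–20.2 TPM (-1.75, adjusted p = 4.99e-06), whereas the translocon-associated subunit SSR4 and the signal peptidase subunit SEC11A rose by 1.17 and by 1.10 on the log2 scale (adjusted p = 2.02e-05 and 3.56e-06), each under all 5 scalings.

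**Figure D4:**
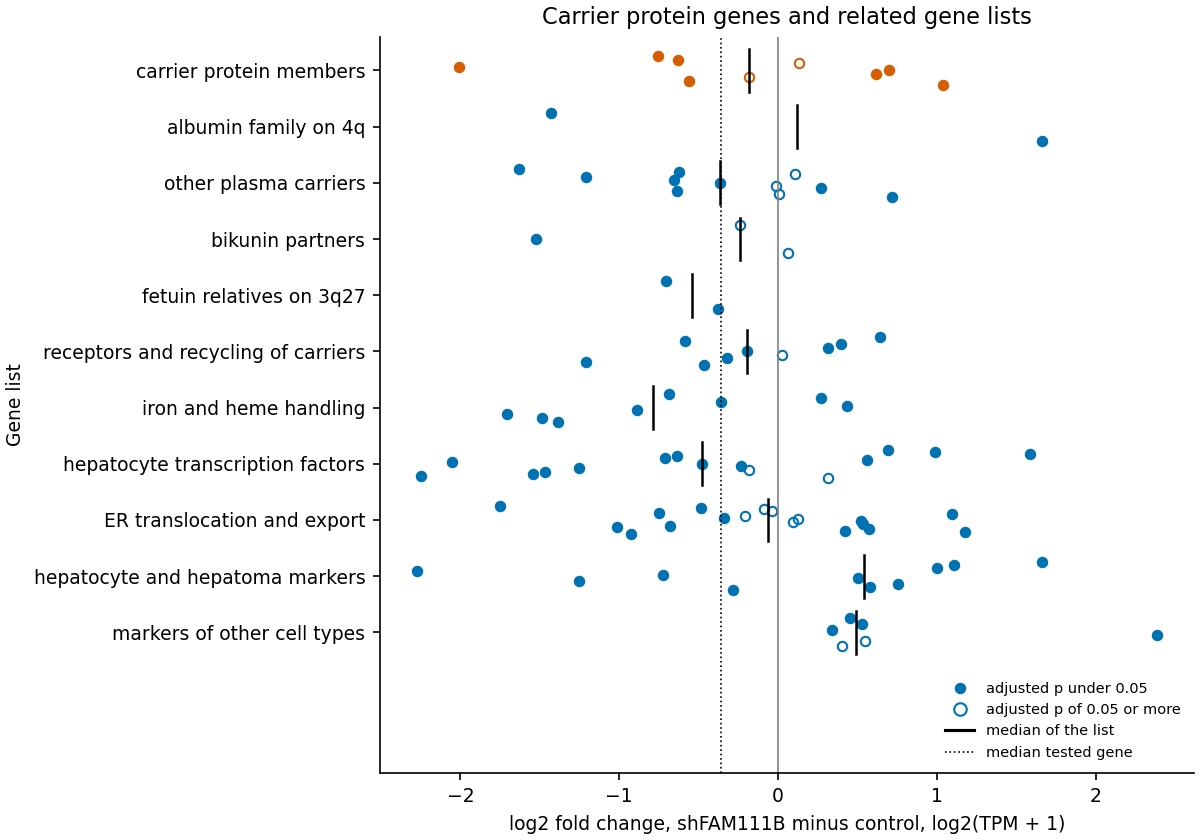
Log2 fold changes of the tested carrier protein genes (orange) and of 10 related gene lists (blue), with filled points for an adjusted p under 0.05, open points otherwise, a bar at the median of each list and a dotted line at the median tested gene (-0.36). The carriers spread from -2.01 for GC to 1.04 for TTR, and the list for iron and heme handling has a median of -0.79 on deposited TPM (-0.92 to -0.25 under 5 other scalings).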

How the data were processed

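Poly(A)-selected RNA of 3 control and 3 shFAM111B Huh7 libraries was compared. The labels give a stranded Illumina kit and the paper a TruSeq kit. The authors deposited TPM per gene and library, and the submitters' processing notes name RSEM, DESeq2 and hg38, without versions. Because TPM are shares of a library, sequencing depth cannot be read from them, and counting error is not given. The same deposited table also holds the authors' group means and a comparison of their own (a fold change with its log2, and p-values before and after adjustment), none of which were used.

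A pseudocount of 1 was added to the TPM, log2 was taken, and the 14394 genes that reached 1 TPM in 3 or more libraries were compared in limma 3.58.1 (R 4.3.3, lmFit and eBayes with a trend, no covariates) with Benjamini-Hochberg adjustment over all of them. Fold changes are on the log2(TPM + 1) scale, which understates the change of low genes such as SERPINA7. Ratios of means were taken on TPM. Within-library log2 ratios, with the pseudocount of 1, and sums were compared by exact two-sided permutation tests. The script was tested on simulated data. No pair of libraries shared more than 0.889% identical TPM among tested genes.

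The members and the gene lists were chosen with earlier results of these data known, and lists are described by counts and medians without a set test. The result of 1 gene of the retinol and thyroxine list is not reported here, so no median or count of higher genes is given for that list, and it is left out of the plot of lists. Named in each list, apart from the cell type markers, are the 3 tested genes with the highest mean TPM and the 3 with the largest change past the adjusted p. The cell type markers named were not picked by that rule. Positions and transcript lengths come from GENCODE v29 for GRCh38, where 58420 of 60666 identifiers (96.3%) were found, and promoter windows from RefSeq. Python 3.11.15 with scipy 1.17.1 was used for tables, tests on ratios and figures. Alternatives were other scalings, pseudocounts and filters, a block on the replicate number, leaving out each library, and, chosen after seeing the data, shFAM111B library 3 alone.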

Additional observations from a re-analysis of the deposited data

How the results depend on the processing

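GC, TTR, HPX and AHSG kept their direction and passed at an adjusted p under 0.05 under every other scaling, without the filter, with a pseudocount of 0.1 and without each library. The deposited TPM gave 3044 genes higher and 7326 lower. The number higher was 5151 with median-of-ratios scaling, 4938 with upper-quartile scaling, 4675 after quantile normalization and 5995 with library medians subtracted, where 4225 were lower. Against a 1.5-fold change 1051 genes were higher and 3949 lower, and with at least 2-fold and unadjusted P under 0.05, 981 and 3409. Leaving out 1 library gave 2781–3010 higher and 6933–7275 lower.

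Against a 1.5-fold change, 1 member stayed higher (TTR) and 2 lower (GC and AHSG), since ALB (log2 fold change -0.63, adjusted p = 0.37), RBP4 (0.62, adjusted p = 0.45), TF (-0.56, adjusted p = 1) and HPX (0.70, adjusted p = 0.079) no longer passed. With at least 2-fold and unadjusted P under 0.05, 1 member was higher (TTR) and 1 lower (GC), and ALB, RBP4, TF, HPX and AHSG (-0.76) missed the 2-fold limit by construction. With library medians subtracted 2 members stayed lower, as ALB (-0.10) and TF (-0.028) did not pass, and TF (-0.11) was also lost with median-of-ratios scaling and RBP4 (0.15) after quantile normalization.

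AMBP passed as higher with median-of-ratios (0.59), upper-quartile (0.55) and library-median scaling (0.66) and without shFAM111B library 2, and turned after quantile normalization (-0.020). Against shFAM111B library 3 alone AMBP was at 0.22, where the controls supply the whole spread and the lone library is assumed to vary like them. SERPINA7 turned with median-of-ratios (0.15), upper-quartile (0.12), quantile (0.18) and library-median scaling (0.35) and against shFAM111B library 3 alone (0.29). The cause of these changes was not tested. Leaving out 1 library gave log2 fold changes of 0.087 to 0.16 for AMBP and -0.42 to 0.27 for SERPINA7.

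Removal of the trend with length and mean level moved ALB to -0.54, GC to -1.95, TTR to 0.83, RBP4 to 0.41 and TF to -1.50. The difference between the member sums, -2147 TPM, turned to 136 TPM without ALB and was -4350 TPM over nuclear protein-coding genes. The log2 ratio of TF was 0.07 higher against ALB and -0.43 against the sum of the other members, and that of FETUB was 0.29 against ALB, -0.085 with a pseudocount of 0.1 and -0.14 against the sum of the other members.

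Samples with the same replicate number did not deviate together beyond 0.1 (correlations 0.054, 0.035 and 0.091 for numbers 1, 2 and 3), and shFAM111B library 2 correlated better with control library 1 (0.044) than with control library 2. With the replicate number as a block, 3022 genes were higher and 7198 lower, and AMBP passed (log2 fold change 0.13, adjusted p = 0.046). Without the filter, FETUB had a log2 fold change of -0.35 (adjusted p = 0.21). With 1 mismatch allowed, the C/EBP letters occur in 75.8% of all promoter windows. Count tests with edgeR or DESeq2 were not run, since TPM hold no counts.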
